A study of Homo sapiens with 12 samples.

Results

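The regions described here are all regions listed for 5-hydroxymethylcytosine (5hmC) or 5-methylcytosine (5mC) in a stretch of chromosome band 8q24 around MYC, in the human myeloid leukemia line HL-60. They were chosen by position alone, from the start that each region's name gives on the hg19 build. The rule found 478 of the 393466 regions with values in both tables, of which 392 were 5hmC regions (of 327931) and 86 were 5mC regions (of 65535). Regions of 20 kb or more are called blocks, short regions lying between the first and the last block are called gap regions, and short regions beyond them are called outer regions. By this division 5hmC had 9 blocks, 330 gap regions and 53 outer regions, and 5mC had 21 blocks, 56 gap regions and 9 outer regions.

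HL-60 is an established promyelocytic line. Undifferentiated HL-60 cells were compared with HL-60 cells grown for 7 days in 1.5% (211 mM) DMSO, a treatment that drives maturation toward neutrophil-like cells; viable cells were sorted as CD11b negative for the first state and CD11b positive for the second. CD11b is the product of ITGAM, and a difference between the states is therefore also one between sorted fractions of a single line. Each state had 3 biological replicates, and DNA of each replicate was divided between an anti-5mC and an anti-5hmC antibody, giving 12 libraries. The files hold no expression values, so the cell type could not be checked against marker genes, and no input library was analysed here.

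MYC encodes a transcription factor that drives growth and division of many cell types, and its level falls when myeloid cells mature. HL-60 is known for carrying extra copies of MYC together with other pieces of 8q24. 5mC is the usual methylation of CpG sites, and 5hmC is made from it by the TET enzymes. Capture of DNA by an antibody rises with the amount of the mark and with the number of copies of a locus, and these cannot be told apart without an input library; the copy number of the blocks was not measured. Where a block is called amplified in the selection rule, the values below show only that more DNA per kb was captured there.

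The 5hmC regions held 13010267 to 33693880 counts per library, and the listed 5mC regions held 6076100 to 9670011. The 5mC table held only regions with small deposited p-values for the same comparison of states, so it appears to have been cut on them. How the cut was made is not known here. The 5mC changes are therefore given as a description, and the 5mC totals are not the depth of those libraries. Densities below are in CPM per kb: counts scaled to a common library total after TMM (edgeR's trimmed mean method, which removes a shared offset between libraries), divided by the width of the region. A log2 fold change sets differentiated over undifferentiated cells, and a region "passed" when its adjusted p in edgeR's quasi-likelihood test was under 0.05. The median log2 fold change over all tested regions was -0.04 for 5hmC and 0.22 for 5mC. Without TMM these medians were -0.25 and -0.03, and a library scaling on strong regions only gave -0.33 and -0.06, so the sign of a small change can depend on the scaling, which is named where it does. By edgeR 27% of all tested 5hmC regions passed as higher and 23.3% as lower; these shares were 14% and 36.1% without TMM, 10.3% and 40.9% with scaling on strong regions, and 13.2% and 7.09% by DESeq2.

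Blocks formed 6 separate segments that had almost the same edges in both tables. In 5hmC they were, in order along the chromosome, chr8:126224401-126547600 (323.2 kb), which overlaps NSMCE2 and TRIB1; chr8:126710801-127386400 (675.6 kb), which overlaps LINC00861 and reaches toward FAM84B; chr8:128067801-128328000 (260.2 kb), which lies between PCAT1 and POU5F1B; chr8:128688801-128772200 (83.4 kb), which overlaps MYC; chr8:130000801-130215400 (214.6 kb), nearest to LOC728724; and chr8:130367001-130698200 (331.2 kb), nearest to GSDMC. Blocks separated by less than 50 kb were joined into a segment, a distance chosen after the spacing was seen: breaks inside segments were 10800 bases or shorter, and gaps between segments were 151.6 kb or longer. The starts of the 5mC segments differed from the 5hmC starts by 0 to 400 bases. The ends differed by 0 to 200 bases, except beside POU5F1B, where the 5mC blocks stopped 2600 bases earlier. Both tables lie on a grid of 200 bases and their libraries share DNA preparations, so the 2 sets of edges are not independent.

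The genes that the tables place in or nearest to the segments are a mixed group. NSMCE2 encodes a SUMO ligase of the SMC5/6 DNA repair complex, and TRIB1 encodes a pseudokinase that brings the myeloid factor C/EBP-alpha to a ubiquitin ligase. LINC00861 and PCAT1 are long noncoding RNA genes, POU5F1B is a retrogene copy of the pluripotency gene POU5F1, and GSDMC encodes a pore-forming gasdermin. By the deposited distances, 4 of the 9 5hmC blocks overlapped a gene. The block nearest to PCAT1 lay 34542 bases from it, and the block nearest to GSDMC lay 62243 bases from it. Only genes that the authors' annotation names are counted. CCDC26, CASC8 and CASC11, for example, were never named as nearest gene, so a block may overlap a gene not counted here. The MYC block overlapped the gene and both of its listed CpG islands, while PVT1, the long noncoding RNA gene just downstream that hosts several microRNAs, had no block in either table.

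The segments of NSMCE2-TRIB1 and MYC were captured more densely than the other 4 in every undifferentiated library. The NSMCE2-TRIB1 segment had 9.55, 9.36 and 9.19 CPM per kb of 5hmC in undifferentiated replicates 1, 2 and 3, and 6.07, 7.68 and 7.61 in differentiated replicates 1, 2 and 3. The MYC segment had 8.47, 8.42 and 8.02 in undifferentiated and 5.54, 7.09 and 6.56 in differentiated replicates. For neither segment did the states overlap. The lowest density was that of the LINC00861-FAM84B segment, at 5.20, 5.23 and 4.94 in undifferentiated and 3.83, 5.20 and 4.91 in differentiated replicates, where the states did overlap.

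The remaining segments lay between these in undifferentiated libraries, while in differentiated replicates 2 and 3 the PCAT1-POU5F1B segment was above the MYC segment. The PCAT1-POU5F1B segment had 5hmC densities of 7.55, 7.52 and 7.41 in undifferentiated and 5.38, 7.13 and 6.79 in differentiated replicates. The LOC728724 segment had 7.12, 7.18 and 6.80 in undifferentiated and 5.01, 6.71 and 6.30 in differentiated replicates. The GSDMC segment had 6.34, 6.47 and 6.05 in undifferentiated and 4.50, 6.12 and 5.63 in differentiated replicates. Only in the GSDMC segment of these 3 did a differentiated library reach the undifferentiated range, and differentiated replicate 1 was the lowest library in all 6 segments.

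**Figure D1:**
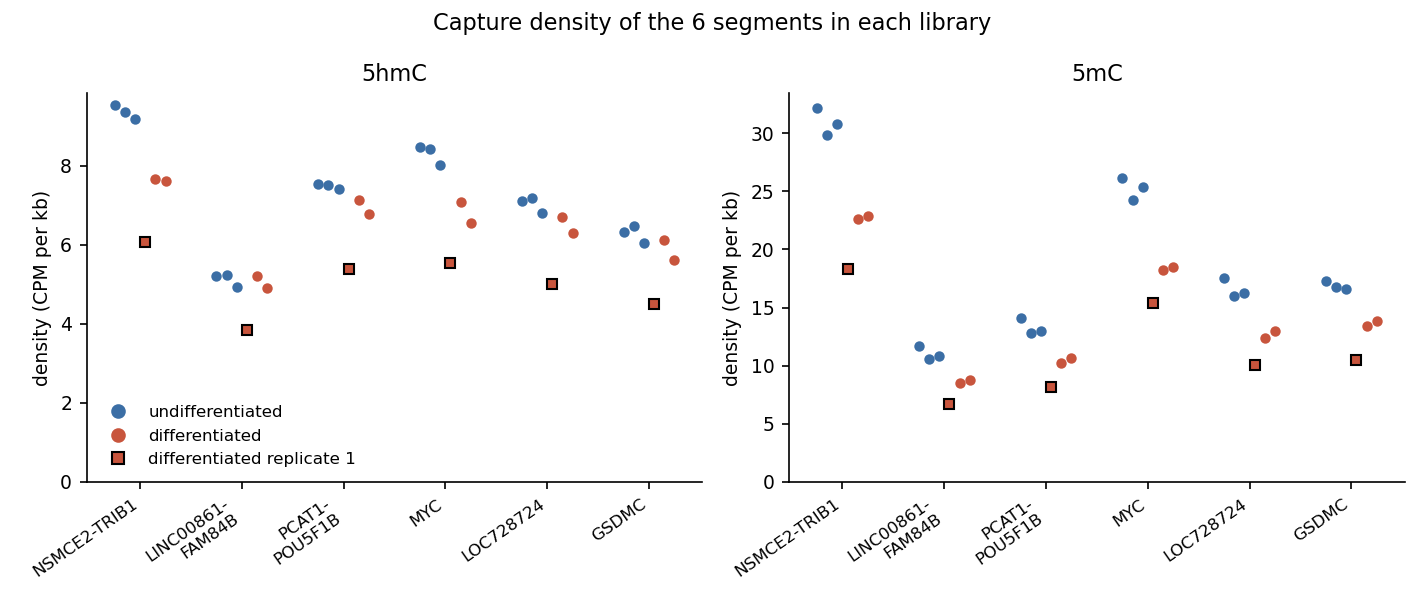
Density in CPM per kb of each of the 6 segments, in genome order, for 5hmC (left) and 5mC (right); blue dots are the 3 undifferentiated and red symbols the 3 differentiated libraries, with differentiated replicate 1 as an outlined square. The square is the lowest symbol in every segment, and in undifferentiated libraries the NSMCE2-TRIB1 and MYC segments are the highest in both panels, at 9.55 and 8.47 in replicate 1 for 5hmC.

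The NSMCE2-TRIB1 and MYC segments were also the densest for 5mC, in all 6 libraries. The NSMCE2-TRIB1 segment had 5mC densities of 32.1, 29.8 and 30.8 in undifferentiated and 18.3, 22.6 and 22.9 in differentiated replicates. The MYC segment had 26.1, 24.3 and 25.3 in undifferentiated and 15.4, 18.2 and 18.4 in differentiated replicates. The LINC00861-FAM84B segment, again the lowest, had 11.7, 10.5 and 10.8 in undifferentiated and 6.72, 8.47 and 8.79 in differentiated replicates. The states were apart in all 6 segments for 5mC, in a list chosen for such a difference. The 5mC means in undifferentiated cells were 13.3 ± 0.711 (SD, n = 3) for the PCAT1-POU5F1B segment, 16.6 ± 0.822 for LOC728724 and 16.9 ± 0.374 for GSDMC.

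The NSMCE2-TRIB1 and MYC segments together had 1.52, 1.48 and 1.52 times the 5hmC counts per kb of the other 4 segments in undifferentiated replicates. In differentiated replicates this ratio was 1.35, 1.27 and 1.32, below all undifferentiated values. For 5mC it was 2.17, 2.18 and 2.23 in undifferentiated and 2.12, 2.07 and 2.02 in differentiated replicates, again without overlap. This pairing of segments was chosen after their values were seen and was given no test, but as a ratio within a library it does not depend on the scaling. What sets the segments apart (copies, density of CpG sites or amount of mark) cannot be told apart here.

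Across all blocks of the table, 5hmC capture was 6.83, 6.83 and 6.55 CPM per kb in undifferentiated and 4.76, 6.31 and 5.99 in differentiated replicates. Gap regions had 2.76, 2.82 and 2.86 in undifferentiated and 3.14, 3.38 and 3.13 in differentiated replicates. Short regions of the rest of the genome had 3.02 to 3.12 in undifferentiated and 3.25 to 3.56 in differentiated replicates. In summed counts over summed width, gap regions were thus at 0.911 to 0.963 times the density of short regions elsewhere. Blocks were at 1.41 to 2.26 times the density of those short regions. Medians over single regions gave the reverse order for gap regions, which were denser in every library. These medians were 2.56 to 2.72 in gap regions and 2.39 to 2.58 in short regions elsewhere. The width of a region was called on these reads, so that blocks are denser than gap regions is a description without a test; only the change of their ratio between states is compared over libraries below.

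**Figure D2:**
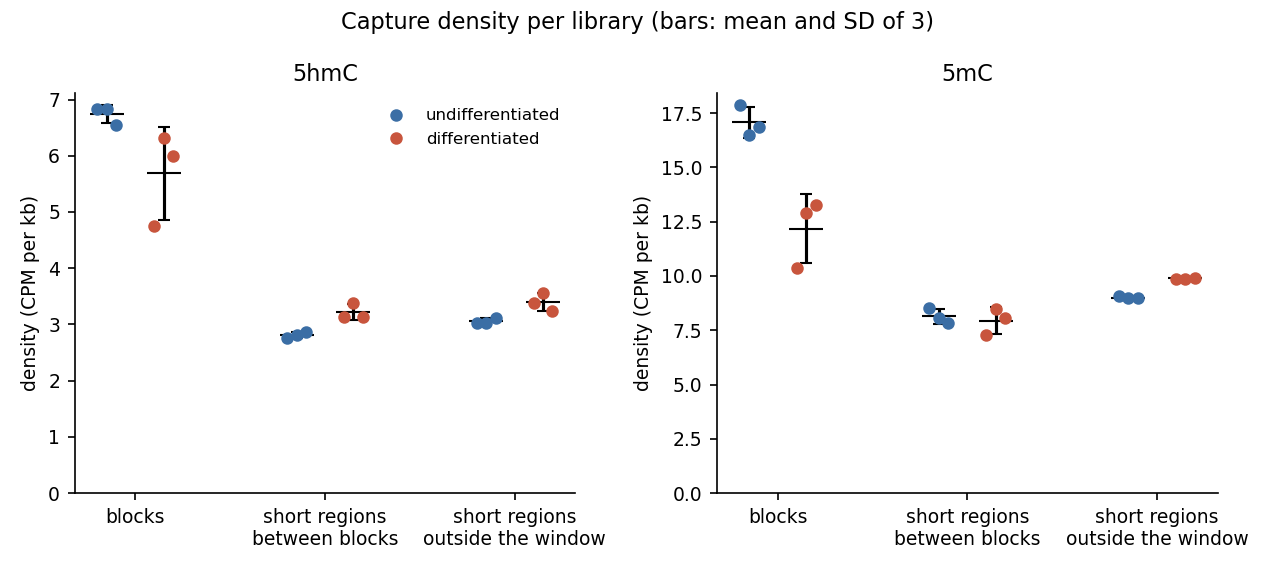
Density in CPM per kb over all blocks, all short regions between blocks and all short regions outside the 8q24 stretch, for 5hmC (left) and 5mC (right); each dot is a library and the bars are mean and SD of 3. Blocks stand above both kinds of short region in 5hmC (6.83, 6.83 and 6.55 in undifferentiated libraries against 2.76 to 2.86 in gap regions), and less so after differentiation.

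The blocks of 5hmC held 2.48, 2.42 and 2.29 times the counts per kb of the gap regions in undifferentiated replicates 1, 2 and 3, and 1.52, 1.87 and 1.91 times in differentiated replicates 1, 2 and 3. The states did not overlap, and the lowest value was that of differentiated replicate 1. On the log2 scale the ratio fell by 0.45 (exact permutation test, two-sided, p = 0.1, n = 3 per state, the smallest p that 3 against 3 can give). This comparison does not depend on how libraries are scaled, and leaving out any single library gave a fall of 0.34 to 0.51. With the 5mC table's own blocks the ratio was 2.09, 2.05 and 2.15 in undifferentiated and 1.42, 1.52 and 1.65 in differentiated replicates.

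Blocks of 5hmC also took up a smaller part of the whole table after differentiation. They held 1.41%, 1.41% and 1.30% of all 5hmC counts before and 0.838%, 1.02% and 1.11% after differentiation. For 5mC they held 3.60%, 3.36% and 3.45% of listed counts before and 1.78%, 2.20% and 2.23% after it. Other regions of 20 kb or more, outside 8q24, moved the opposite way: they held 10.3% to 10.9% of 5hmC counts in undifferentiated and 13.9% to 17.5% in differentiated libraries. The part of that shift in the block shares was not tested, and the ratio of blocks to gap regions above does not contain these regions.

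Region by region, 0 of the 9 5hmC blocks passed edgeR's test in either direction, where 27% of all tested 5hmC regions passed as higher and 23.3% as lower, and 0 had an unadjusted p under 0.05. All 9 log2 fold changes were negative, from -0.48 to -0.09 with a median of -0.23, and their standard errors in edgeR were 0.235 to 0.342. By DESeq2 the standard errors of the same blocks were 0.134 to 0.144. The size of the error, and so the number of blocks that pass, depends on how the spread is modelled. In 7 of the 9 blocks the ranges of the states were apart, all 7 lower in differentiated cells, against 25.9% of all 5hmC regions. The exceptions were the first LINC00861 block and the GSDMC block. The blocks share a locus and the same libraries and are far wider than most regions, so the 7 are not independent cases. The block over NSMCE2 and the start of TRIB1 had the largest fall, with a log2 fold change of -0.48 ± 0.327 (SE; edgeR adjusted p = 0.203), and raw counts of 81811, 45065 and 35465 in undifferentiated and 23712, 18712 and 53413 in differentiated replicates.

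The MYC block held 26030, 14554 and 11076 raw 5hmC counts in the undifferentiated libraries and 8205, 6599 and 17464 in the differentiated ones, of unequal depth. Its log2 fold change was -0.38 ± 0.262 (SE; edgeR adjusted p = 0.214). DESeq2 called 2 of the 9 blocks lower, this one (adjusted p = 0.0384) and the NSMCE2-TRIB1 block (adjusted p = 0.00894), and edgeR without TMM called 6. In the authors' deposited table the adjusted p was 0.0096 for the MYC block, 0.000931 for the NSMCE2-TRIB1 block and 0.0368 for the FAM84B block. With differentiated replicate 2 left out, edgeR called these same 3 blocks lower, and with differentiated replicate 1 left out the first LINC00861 block turned to 0.03.

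Differentiated replicate 1 had the lowest density of the 6 libraries in 9 of 9 5hmC blocks and in 21 of 21 5mC blocks. In gap regions it was the lowest in 61 of 330 for 5hmC (18.5%) and in 11 of 56 for 5mC (19.6%). The summed 5hmC block density changed by -0.26 on the log2 scale (exact permutation test, two-sided, p = 0.1, n = 3 per state), and by -0.13 without differentiated replicate 1. Without TMM it changed by -0.48 and with scaling on strong regions by -0.56. What sets that library apart was not tested.

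For 5mC, 21 of the 21 blocks were lower in differentiated cells by edgeR, where 37% of listed 5mC regions passed as lower and 35.7% as higher; the states were apart in all 21, against 42.9% of listed regions. These calls come from the contrast that chose the list and are not a test of the blocks. The log2 fold changes ran from -0.64 for a block nearest to FAM84B (chr8:127283401-127329400) to -0.33 for the first block of the LINC00861 segment (chr8:126710601-126809800), with a median of -0.48. The MYC block had 5mC counts of 16105, 13404 and 14578 in undifferentiated and 11312, 10978 and 13391 in differentiated replicates, and a log2 fold change of -0.54 ± 0.0544 (SE). The NSMCE2 block had 56440, 47405 and 51056 in undifferentiated and 37966, 38270 and 46403 in differentiated replicates, with a log2 fold change of -0.57 ± 0.0514 (SE). All 21 stayed negative without TMM and with scaling on strong regions.

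Long regions elsewhere in the genome gave the contrary sign, but they are matched to the blocks by width only. Their median density was 77.1 CPM per kb for 5hmC and 87.2 for 5mC, against 6.52 and 11.3 for the blocks. Of the 25 other 5hmC regions of 20 kb or more, all 25 had positive log2 fold changes (0.08 to 1.14, median 0.78). Of these, 12 passed as higher, beside 27% of all tested 5hmC regions. Of the 31 other 5mC regions of that width, all 31 were positive (0.14 to 0.70, median 0.53). Without TMM, 24 of the 25 and 28 of the 31 were positive, and with scaling on strong regions 24 and 27, while every block of the 8q24 stretch stayed negative under both.

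The gap regions, unlike the blocks, moved in both directions. Of the 330 5hmC gap regions, 113 rose (34.2%), 58 fell (17.6%) and 159 did not pass, beside the 27% and 23.3% of all tested regions given above, and their median log2 fold change was 0.10. Without TMM 69 rose and 110 fell, and scaling on strong regions gave 55 and 119, so the balance of directions depends on the scaling. The states were apart in 94 gap regions as higher (28.5%, against 26.2% of all regions) and in 72 as lower (21.8%, against 25.9%). The sum over gap regions was 0.19 higher in differentiated cells (exact permutation test, two-sided, p = 0.1, n = 3 per state) and turned to -0.038 without TMM.

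**Figure D3:**
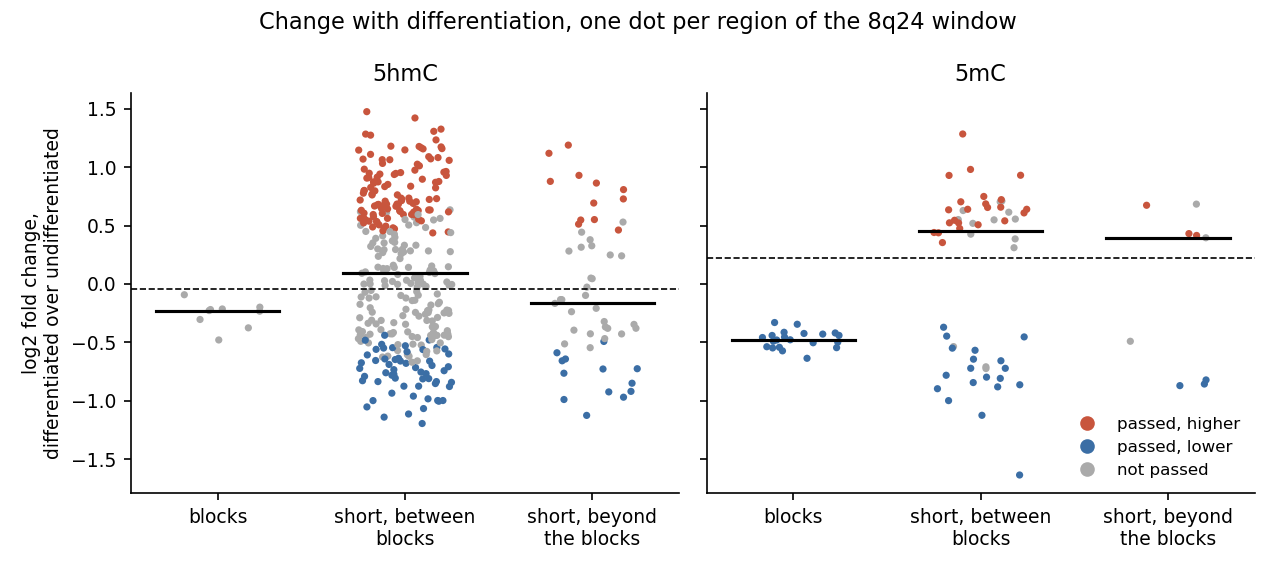
Log2 fold change of each region, differentiated over undifferentiated, for blocks, short regions between blocks and short regions beyond the blocks, in 5hmC (left) and 5mC (right); red and blue dots passed edgeR's test, grey dots did not, black bars are medians and the dashed line is the median of all regions tested. The 5hmC blocks lie between -0.48 and -0.09 and the 5mC blocks between -0.64 and -0.33, while gap regions spread to both sides of 0.

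In 5mC, 23 of the 56 gap regions were higher, 19 lower and 14 did not pass. The shares were 41.1% and 33.9%, beside 35.7% and 37% of the whole list. The states were apart in 29 gap regions as higher (51.8%, against 43.1% of the list) and in 21 as lower (37.5%, against 42.9%). Without TMM 3 were higher and 22 lower, where 3.81% and 49.9% of the list passed, and with scaling on strong regions 2 were higher and 22 lower, where 2.97% and 49.9% passed. The 4 gap regions within 10 kb of a block were all lower, as their neighbouring blocks were. Over the intervals of the 5hmC segments, listed 5mC regions covered 99.0% of the bases, and all 22 had a negative log2 fold change. Over the 5 gaps between 5hmC segments they covered 2.34% of the bases, with 20 lower and 34 higher among 54 short regions by the sign of the log2 fold change. The median log2 fold change of the whole list was 0.22. Regions that did not reach the list are not counted, so these shares of bases are not the coverage of the gaps by 5mC.

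The 5 gaps between 5hmC segments were 163.2, 681.4, 360.8, 1228.6 and 151.6 kb long and held 30, 79, 52, 154 and 15 short 5hmC regions. Listed regions covered 6.60% to 14.7% of each gap. In genome order, 10, 21, 18, 62 and 2 regions of these gaps rose and 4, 14, 8, 26 and 6 fell, beside 27% and 23.3% of all tested regions. The share that rose was 40.3% in the 1228.6 kb gap after MYC, 26.6% in the 681.4 kb gap and between 13.3% and 34.6% in the others. The gap after MYC was not uniform: 37 of its 62 rises were among the 61 regions nearest to MIR1208, described below. Of the 17 regions nearest to MIR1204, 2 rose and 8 fell (11.8% and 47.1%). DESeq2 called 2 of these 17 higher and 3 lower. In edgeR 5 were lower without differentiated replicate 3 or undifferentiated replicate 1. Without TMM 6, 13, 9, 40 and 1 rose and 6, 33, 17, 45 and 9 fell, so fewer rose and more fell in all 5 gaps than with TMM. Leaving out differentiated replicate 3 gave 7, 15, 9, 45 and 1 higher and 1, 7, 5, 13 and 2 lower. Over all tested regions this omission took the higher calls from 88586 to 61886 and the lower from 76303 to 43359. In the gap before the GSDMC segment the 6 lower calls became 2 without differentiated replicate 1, differentiated replicate 3 or undifferentiated replicate 1. Gap regions were short, with a median width of 600 bases, and 43 of the 330 (13.0%) lay in a gene, 31 of them in PVT1, compared with 44 of the 53 outer regions (83.0%) and 48.4% of short regions outside the stretch.

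**Figure D4:**
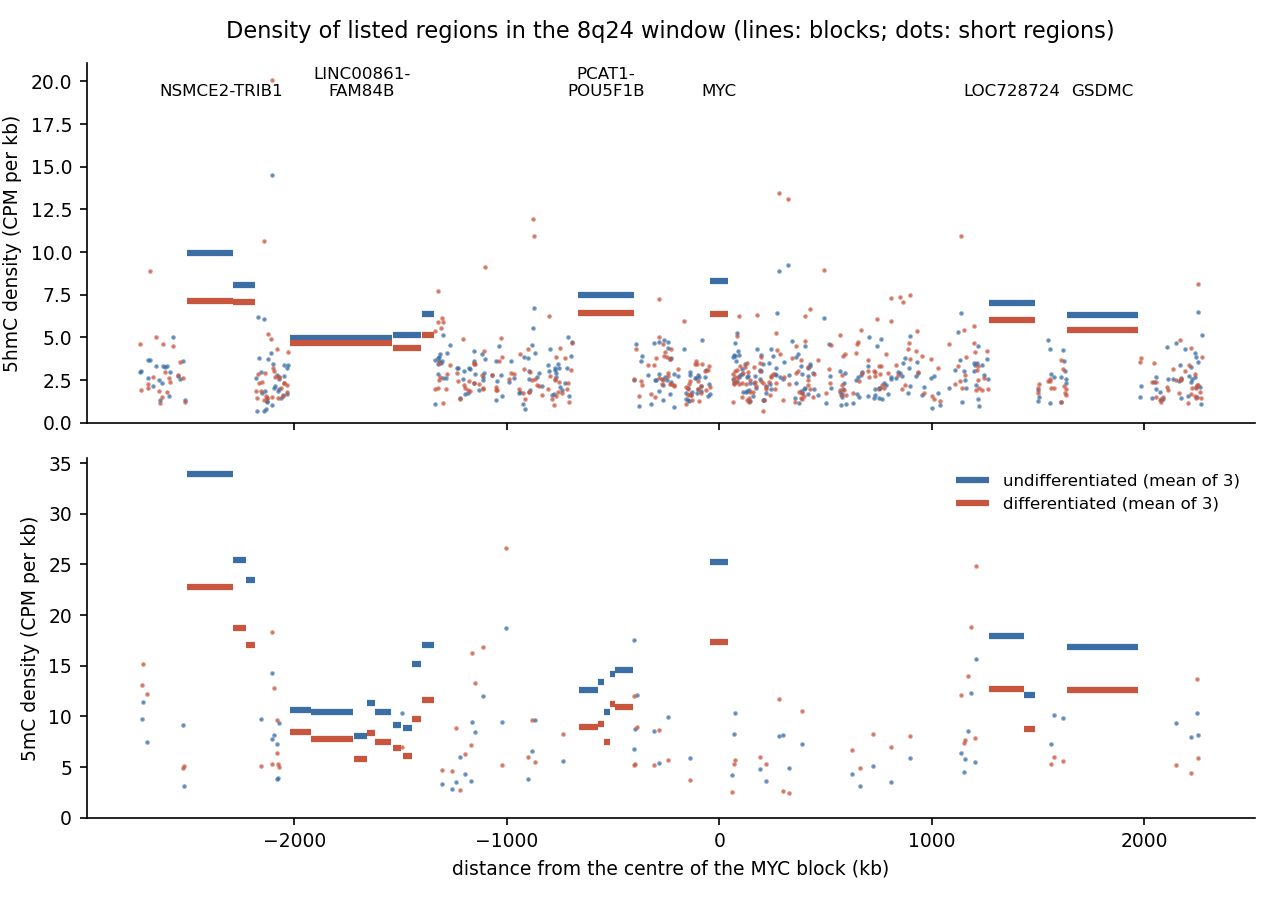
Density in CPM per kb of every listed region along the stretch, by distance from the centre of the MYC block in kb, for 5hmC (top) and 5mC (bottom); thick lines span blocks, dots are short regions, blue is the mean of 3 undifferentiated and red of 3 differentiated libraries. The 6 segments stand as raised lines between fields of dots, and the gap on the right of MYC, where PVT1 lies, holds dots but no line.

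The edge of the first segment falls inside NSMCE2, whose listed regions lie on both sides of it. The 11 short 5hmC regions in NSMCE2 before the edge had median densities of 3.05, 2.65 and 2.99 in undifferentiated and 2.54, 2.87 and 2.39 in differentiated replicates. The block that begins 5200 bases after the last of them had 10.2, 9.95 and 9.80 in undifferentiated and 6.12, 7.67 and 7.66 in differentiated replicates. The highest of the short regions reached 6.04, in undifferentiated replicate 3, so in every library all 11 lay below the block. Of the 11, 3 rose, 3 fell and 5 did not pass (27.3% in each direction, beside 27% and 23.3% of all tested regions). Without TMM 0 rose and 3 fell, with scaling on strong regions 0 and 4, and DESeq2 called 1 higher and 0 lower; leaving out differentiated replicate 1 or undifferentiated replicate 1 left 1 lower.

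TRIB1 marks a break within the first segment. The break was 600 bases long in 5hmC (chr8:126442801-126443400) and 2600 bases in 5mC (chr8:126441601-126444200), over a CpG island of 2082 bases at chr8:126441471-126443552. Blocks covered 71.2% of that island in 5hmC and 6.20% in 5mC. The larger CpG island at MYC (chr8:128747805-128751279, 3475 bases) and a smaller one (chr8:128746250-128746480) were covered by the block entirely in both tables. Because a block gives 1 count for its whole length, the counts do not show whether the MYC islands themselves were captured. In 5mC a break may also be a region that did not reach the list.

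The 5hmC block that follows the break (chr8:126443401-126547600) had densities of 8.26, 8.11 and 7.91 in undifferentiated and 5.96, 7.69 and 7.50 in differentiated replicates, a log2 fold change of -0.20 ± 0.275 (SE; edgeR adjusted p = 0.537). The states did not overlap there. Within the LINC00861-FAM84B segment the 3 blocks had log2 fold changes of -0.09, -0.23 and -0.30 in order, none of which passed. Differences between blocks of a segment were not tested.

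PVT1 had only short regions, in contrast to MYC beside it. In the gene itself lay 31 5hmC gap regions, of which 7 rose (22.6%, beside 27% of all regions), 6 fell (19.4%, beside 23.3%) and 18 did not pass. Their summed density was 3.19, 3.14 and 3.51 in undifferentiated and 3.43, 4.02 and 3.24 in differentiated replicates, and the states overlapped. Without TMM 1 rose and 13 fell, so the direction in the gene depends on the scaling. The highest densities were at chr8:129052801-129054200, with 9.34, 8.30 and 10.1 in undifferentiated and 11.8, 16.2 and 11.4 in differentiated replicates, and at chr8:129010601-129011200, with 9.09, 8.20 and 9.35 in undifferentiated and 13.0, 17.3 and 10.2 in differentiated replicates. Both rose, by 0.49 ± 0.158 (SE; edgeR adjusted p = 0.00995) and 0.54 ± 0.154 (SE; edgeR adjusted p = 0.00391) on the log2 scale.

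One PVT1 region, chr8:128933401-128934400, had the lowest mean density of all gap regions. It held 48, 23 and 25 5hmC counts before and 6, 12 and 21 after differentiation, or densities of 1.30, 1.11 and 1.51 against 0.338, 1.07 and 0.658, and passed as lower (edgeR adjusted p = 0.00505). Of 5 listed 5mC regions in PVT1, 2 were higher, 2 lower and 1 did not pass. That is 40% in each direction, beside 35.7% higher and 37% lower in the whole list. The higher count was 0 without TMM or without differentiated replicate 2, and 1 without differentiated replicate 1 or any 1 undifferentiated replicate. The lower ones were chr8:129027801-129028200, with counts of 25, 18 and 26 in undifferentiated and 8, 7 and 11 in differentiated replicates, and chr8:129055801-129056600, with 27, 25 and 31 against 9, 12 and 28.

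Beyond PVT1 lies a row of regions whose nearest named gene is MIR1208, the last microRNA gene of the PVT1 locus. The 61 5hmC regions, from 129146601 to 129693800, covered 45 kb; 37 rose (60.7%, against 27% of all tested regions) and 7 fell. Their summed density was 2.45, 2.53 and 2.66 in undifferentiated and 3.62, 3.71 and 3.40 in differentiated replicates, so the states were apart. The median log2 fold change of the 61 was 0.62, compared with 0.10 over all gap regions. Without TMM 26 rose and 11 fell (42.6% higher, beside 14% of all regions), with scaling on strong regions 22 and 11, and DESeq2 called 24 higher and 1 lower. Leaving out a library gave 27 to 36 higher and 3 to 7 lower, with 3 lower without differentiated replicate 1 or 3. This group was chosen after its values were seen. Of 5 listed 5mC regions there, 4 were higher and 1 did not pass, where 35.7% of the list passed as higher. Without TMM 0 passed, where 3.81% of the list was higher and 49.9% lower. Only 1 was higher without differentiated replicate 2, differentiated replicate 3 or undifferentiated replicate 3, 2 without undifferentiated replicate 1 or 2, and 5 without differentiated replicate 1.

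Of the 5 largest 5hmC rises among gap regions, 4 were in this row. The region chr8:129537401-129537800 went from 36, 20 and 19 to 52, 37 and 81 raw counts, or 2.44, 2.41 and 2.87 against 7.33, 8.28 and 6.34 CPM per kb. Its log2 fold change was 1.48 ± 0.215 (SE; edgeR adjusted p = 9.55e-07), and the states did not overlap. The next, chr8:129297601-129298200, had 46, 21 and 17 against 43, 41 and 100 counts and a log2 fold change of 1.42 ± 0.209 (SE; edgeR adjusted p = 1.09e-06). Those at chr8:129377401-129377800 and chr8:129579601-129580000 rose by 1.33 and 1.31, and the fifth, nearest to LOC728724 at chr8:130286601-130287200, by 1.28. All 5 were 400 or 600 bases wide and rested on at most 100 counts per library.

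The 5 largest falls lay in several gaps. The region nearest to FAM84B at chr8:127431401-127431800 fell from 42, 18 and 19 counts to 7, 6 and 15, with a log2 fold change of -1.20 ± 0.329 (SE; edgeR adjusted p = 0.0029). A region at chr8:129739801-129740200, nearest to LOC728724, had -1.14, and one at chr8:126562001-126562400, nearest to TRIB1, had -1.11. The region chr8:128018801-128019200 lay 6200 bases from PCAT1 and had counts of 80, 35 and 36 against 13, 11 and 35, with a log2 fold change of -1.07 ± 0.239 (SE; edgeR adjusted p = 0.000414). The fifth, chr8:129169001-129169400, lay 6567 bases from MIR1208 and had -1.05, the contrary of most of its neighbours.

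Density alone did not separate blocks from every gap region. Of the 330 5hmC gap regions, 26 (7.88%) were as dense as the least dense block (4.75 CPM per kb) or denser. The densest, chr8:126626001-126627000, 175357 bases from TRIB1, had 13.6, 13.6 and 16.4 in undifferentiated and 18.4, 27.4 and 14.4 in differentiated replicates, above the NSMCE2-TRIB1 segment in all 6 libraries. It passed as higher, with a log2 fold change of 0.45 ± 0.168 (SE; edgeR adjusted p = 0.0244), although the states overlapped. The same place was listed in 5mC (chr8:126626001-126627200), with 15.7, 14.3 and 13.0 in undifferentiated and 18.6, 18.9 and 17.6 in differentiated replicates. Of the 56 5mC gap regions, 28 (50%) were at or above the least dense 5mC block, and the densest was chr8:127725601-127726400, nearest to FAM84B, with 18.2, 21.6 and 16.4 against 25.6, 26.8 and 27.3.

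The other 2 of the 3 least dense gap regions of 5hmC had TRIB1 as their nearest named gene, at 136757 and 102957 bases. The region chr8:126587401-126588400 had 0.678, 0.820 and 0.604 CPM per kb in undifferentiated and 0.958, 1.34 and 1.63 in differentiated replicates, and chr8:126553601-126554600 had 0.651, 0.772 and 0.724 against 1.47, 1.34 and 1.60. Both rose. The second lay 6001 bases past the end of the NSMCE2-TRIB1 segment. At that edge the last block was 2.97, 3.20 and 3.08 times as dense as the first short region after it in undifferentiated replicates, and 3.02, 4.91 and 3.83 times in differentiated replicates.

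The width of 20 kb fell in an empty range for 5hmC: the widest short region was 11.8 kb and the narrowest block 56.6 kb. The 11.8 kb region, chr8:128332801-128344600, follows the PCAT1-POU5F1B segment and had densities of 4.71, 4.78 and 4.37 in undifferentiated and 3.44, 4.90 and 4.62 in differentiated replicates, with a log2 fold change of -0.10. In 5mC the widest short region was 9 kb, between blocks of the LINC00861 segment, and the narrowest block 21.2 kb, near PCAT1. The stretch of the 11.8 kb region was listed in 5mC as 2 short regions, of 6.2 and 5.2 kb, both lower, with log2 fold changes of -0.72 and -0.45.

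Inside the other genes of the neighbourhood named here, FAM49B, KIAA0196, GSDMC and SQLE, only short regions were listed. Of a list of 33 gene symbols of the band, 14 were named by each table, and 10 had a 5hmC region within the gene and 9 a 5mC region. The list holds old and new symbols of some genes, such as FAM49B and CYRIB, so a symbol not named is not always a gene without regions. FAM49B, whose product restrains RAC1-driven actin remodelling, had 22 short 5hmC regions in the gene, of which 3 rose (13.6%, beside 27% of all regions), 6 fell (27.3%, beside 23.3%) and 13 did not pass. The lower count was 11 without TMM, 13 with scaling on strong regions, 2 by DESeq2, 2 without differentiated replicate 3 and 4 without undifferentiated replicate 1 or 3. Their summed density was 2.77, 2.84 and 3.04 in undifferentiated and 2.82, 2.89 and 2.60 in differentiated replicates, with overlap. KIAA0196, which encodes a subunit of the actin-regulating WASH complex, had 7, of which 2 rose and 1 fell. GSDMC had 4 in the gene, of which 1 rose and 1 fell. These few counts stand beside 27% higher and 23.3% lower of all tested regions. SQLE, which encodes an enzyme of cholesterol synthesis, had 2 5mC regions in the gene, both higher, beside 35.7% of the list. All 53 outer 5hmC regions together gave 12 higher (22.6%) and 13 lower (24.5%), beside 27% and 23.3% of all regions, and 6 and 20 without TMM; the lower count was 6 without differentiated replicate 3 and the higher count 7 without undifferentiated replicate 1. The 9 outer 5mC regions gave 3 higher and 3 lower (33.3% each, beside 35.7% and 37% of the list), and 0 and 4 without TMM.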

How the data were processed

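Antibody-captured DNA of 3 undifferentiated and 3 differentiated HL-60 replicates was measured for each mark. The submitters' processing notes name BWA, SAMtools 0.1.18, bedtools 2.17.0, SICER 1.1, edgeR 2.11 and GRCh37 (hg19), without roles. The authors deposited raw counts per region and library, and nearest-gene and CpG-island distances. The authors also deposited a log2 fold change (undifferentiated over differentiated) and a p-value and adjusted p-value per region. The sources used here do not say whether regions were called per library.

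Of 327949 listed 5hmC regions, 18 had no values. The largest deposited 5mC p-value, 0.0165, and adjusted p, 0.0826, imply 328588 tests, over which 5mC p-values were adjusted. The whole table of each mark was fitted with edgeR 4.0.16 (filterByExpr, TMM, quasi-likelihood F test, Benjamini-Hochberg) in R 4.3.3, with limma 3.58.1, and with DESeq2 1.42.0 as an alternative. SE comes from the fold change and F statistic.

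Region starts ran from 126 to 131 Mb. All blocks are described, with the 3 densest and 3 least dense gap regions per mark and the 5 largest 5hmC rises and falls that passed; regions named beyond these were chosen after their values were seen. The members and lists were chosen with earlier results of these data known. P-values refer only to these replicates. The exact permutation p-values rest on the library values alone. In edgeR and DESeq2 the spread of a region is modelled partly from other regions. Those p-values therefore do not measure only the spread of its own replicates. On simulated counts, edgeR recovered 31 of 50 5hmC regions changed 2-fold and 5 of 50 changed 1.5-fold. That simulation gave every region the same fixed spread and changed only a few of 327922 regions. In the real 5hmC counts 27% of regions passed as higher and 23.3% as lower. The recovery rates are therefore not the power of the fits above. Counts were made from reads without molecular identifiers.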

Additional observations from a re-analysis of the deposited data

How the results depend on the processing

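The 5hmC blocks called lower, 0 by edgeR with TMM, were 6 without TMM, 8 with TMM on strong regions (chosen after seeing the data), 2 with DESeq2 and 0 to 3 with a library left out; none was called higher. Gap regions of 5hmC called higher were 113, then 69, 55 and 63 under the same 3 settings, and 77 to 118 with a library left out; those called lower were 58, then 110, 119 and 16, and 28 to 65 (28 without differentiated replicate 3, 37 without replicate 1). Over the whole 5hmC table the higher share of calls was 53.7% with TMM, 28.0% without and 65.0% with DESeq2. The 5hmC gap sum, 0.19, turned to -0.038 without TMM, -0.11 on strong regions and -0.044 with library totals that leave out the 8q24 stretch. Gap regions of 5mC called higher were 23, against 3 without TMM and 2 on strong regions, and 12 to 21 with a library left out (15, 13 and 12 without undifferentiated replicates 2 and 3 and differentiated replicate 2); 19 were called lower, and 9 to 15 with a library left out (9 and 10 without undifferentiated replicates 2 and 3, 11 without differentiated replicate 1 or 2). Leaving out a library also lowered the calls over all regions. The lower 5hmC calls went from 76303 to 43359 without differentiated replicate 3 and 53757 without differentiated replicate 1. In the 5mC list the higher calls went from 23381 to 14141 to 15162, and the lower from 24269 to 14939 to 15539. The 5mC ratio of blocks to gap regions, 1.81, was 1.42 when blocks had to be 50 kb wide, a width at which narrower blocks count as gap regions. The cause of these shifts was not tested. No pairing of samples by number showed in the counts: same-numbered libraries had correlations of -0.105 to 0 in 5hmC and -0.01 to 0.011 in 5mC. These are correlations of deviations from the means of only 3 libraries per state, so they cannot exclude pairing. With the replicate number as a block, 0 5hmC blocks, 95 higher and 48 lower 5hmC gap regions, and 21 lower 5mC blocks were called, and 22 higher and 19 lower 5mC gap regions; the paired exact p of the sums was 0.25, the smallest that 3 pairs give. The 5hmC block sum, -0.26, was -0.48 without TMM, -0.56 on strong regions, -0.49 with totals that leave out the stretch and -0.13 to -0.34 with a library left out; the 5mC block sum, -0.50, was -0.75, -0.78, -0.77 and -0.38 to -0.56. Both kept their sign. Short 5hmC regions rest on few counts, and changes in them may be missed.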
